A study of Homo sapiens with 12 samples.

Results

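The tight junction genes CLDN1, CLDN2, CLDN3, CLDN4, CLDN7, CLDN12, OCLN, TJP1 and F11R were followed through 12 RNA-seq libraries of the established human gastric cancer lines MKN28 and MKN45. They were taken by the symbol of the Ensembl identifier in the count table, 9 of 50868 identifiers. Each of the 4 groups held 3 libraries, numbered 1 to 3. MKN28 cells labelled WT carried the lentivirus LV-Control, and were compared with MKN28 cells labelled ZNF165 knockdown, which carried LV-ZNF165-siRNA. MKN45 cells labelled WT also carried LV-Control, and were compared with MKN45 cells labelled ZNF165 Overexpression, which carried LV-ZNF165. Every group was thus transduced with a lentivirus, and no group was left without one. ZNF165 encodes a SCAN-type zinc-finger protein, made mainly in the testis and in some tumours. The labels give neither the siRNA sequence nor the promoter of the overexpression construct, nor whether the cells were pools or single clones. They do not say that replicates were separate cultures either, so p-values measure a spread between libraries that may be technical only.

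Tight junctions are belts of contact near the apical edge of epithelial cells that limit what passes between them. Claudins span the membrane and polymerise into strands, and which claudins a cell makes sets how tight the seal is and which ions cross it. CLDN1, CLDN3, CLDN4 and CLDN7 are counted among the sealing claudins, while CLDN2 forms a channel for small cations and water. CLDN12 lacks the usual tail by which claudins bind scaffold proteins. Occludin (OCLN) is a MARVEL-domain protein of the same strands, F11R (JAM-A) is an immunoglobulin-like adhesion protein beside them, and TJP1 (ZO-1) is the scaffold that ties strands to actin. In stomach the gastric form of CLDN18 is the usual claudin of the mucosa, and CLDN1, CLDN3, CLDN4 and CLDN7 are better known from intestine and from tumours.

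Library totals lay between 12075813 and 19548445 counts, and several features of the libraries touch the results. ZNF165 had 262, 186 and 287 counts in the MKN28 controls, with 74, 40 and 22 in the knockdown (log2 fold change −1.47, SE 0.53, adjusted p = 0.0459 by edgeR's quasi-likelihood test), and 156, 140 and 277 counts in the MKN45 controls against 2115, 1977 and 1909 in the overexpression (3.09, SE 0.31, adjusted p = 0.0109). ZNF166 and ZNF167 are named in the descriptions of knockdown replicates 2 and 3, whereas the genotype field gives ZNF165 for all 3 libraries, and that field was followed. Across genes, Spearman's rho between level and transcript length was 0.158 to 0.263 in the MKN28 controls, −0.135 to −0.0455 in the knockdown, 0.0557 to 0.217 in the MKN45 controls and 0.270 to 0.281 in the overexpression. Knockdown replicates 2 and 3 also stood apart by GC content (rho 0.390 and 0.381, against 0.0758 in replicate 1). Their scaling factors (TMM, over the 12 libraries) were 0.533 and 0.641, against at least 0.908 in the other libraries. In these 2 libraries 17620 and 17504 genes had a count, against at least 20425 in the others. The 6 epithelial markers EPCAM, KRT8, KRT18, KRT19, CDH1 and ESRP1 were present in every group, with summed levels of 6112 to 7069 CPM (counts scaled to the library total and by TMM factors over the 12 libraries) in MKN28 controls, 15979 to 69395 in the knockdown, 4480 to 9686 in MKN45 controls and 3921 to 6372 in the overexpression. The rise of that sum in the knockdown came from the keratins KRT8, KRT18 and KRT19, which passed as higher, while the adhesion gene CDH1 (343 ± 66.9 to 80.5 ± 26.4 CPM) and the splicing regulator ESRP1 (238 ± 42.1 to 47.7 ± 16.4 CPM) fell and EPCAM did not pass. The 4 endothelial markers summed to at most 1.77 CPM in any library and the 7 mesenchymal markers to at most 156 CPM. The 5 leukocyte markers summed to 7.54 to 35.4 CPM in MKN28 controls, 35.7 to 58.8 in the knockdown, 92.6 to 125 in MKN45 controls and 139 to 208 in the overexpression, and the part of these cell types in the members' results was not tested.

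The most abundant tight junction transcript per kilobase (CPM divided by the length of the longest GENCODE 29 transcript) was CLDN7 in both control groups. In MKN28 controls the order of mean levels was CLDN7 at 91.9, F11R at 80.6, TJP1 at 49.7, CLDN3 at 17.5, OCLN at 9.18, CLDN12 at 7.48, CLDN1 at 6.58, CLDN4 at 0.646 and CLDN2 at 0 CPM per kb. The ranges of CLDN7 (61.2 to 145), F11R (66.1 to 109) and TJP1 (27.0 to 63.6) overlapped between neighbours except those of F11R and TJP1, as did those of CLDN3, OCLN, CLDN12 and CLDN1, while CLDN4 (0.380 to 1.07) lay under all of these. In MKN45 controls the order was CLDN7 at 50.4, CLDN3 at 42.1, F11R at 38.0, CLDN1 at 25.2, CLDN12 at 10.6, TJP1 at 6.98, CLDN4 at 3.49, OCLN at 1.14 and CLDN2 at 0.787 CPM per kb. The CLDN3 range (32.3 to 61.6) held the F11R range and overlapped that of CLDN7 (44.4 to 56.6), and CLDN1 (20.4 to 31.7) lay under all of these. There the scaffold gene TJP1, 3rd in MKN28, came 6th, with a range of 3.51 to 9.66 that overlapped those of CLDN12 (5.20 to 14.5) and CLDN4 (1.18 to 5.41). In the knockdown the means ran CLDN4 at 569, CLDN7 at 162, F11R at 135, CLDN3 at 22.6, TJP1 at 6.0, CLDN12 at 3.02, CLDN1 at 2.55, OCLN at 1.59 and CLDN2 at 0.027 CPM per kb, where the place of CLDN4 rests on a range of 0.981 to 1036. The overexpression group put CLDN1 first at 42.0, then CLDN4 at 39.6 (3.79 to 92.8), F11R at 30.3, CLDN7 at 29.6, CLDN3 at 24.9, CLDN12 at 17.1, TJP1 at 12.4, CLDN2 at 3.11 and OCLN at 1.85 CPM per kb. F11R (29.2 to 31.0) lay within the range of CLDN7 (18.2 to 35.6), as did CLDN3, while OCLN (1.81 to 1.90) overlapped only CLDN2 (1.86 to 5.02). Orders between genes depend on the transcript chosen: with each gene's median transcript length, F11R came first in both control groups, at 428 CPM per kb in MKN28 and 202 in MKN45.

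**Figure D1:**
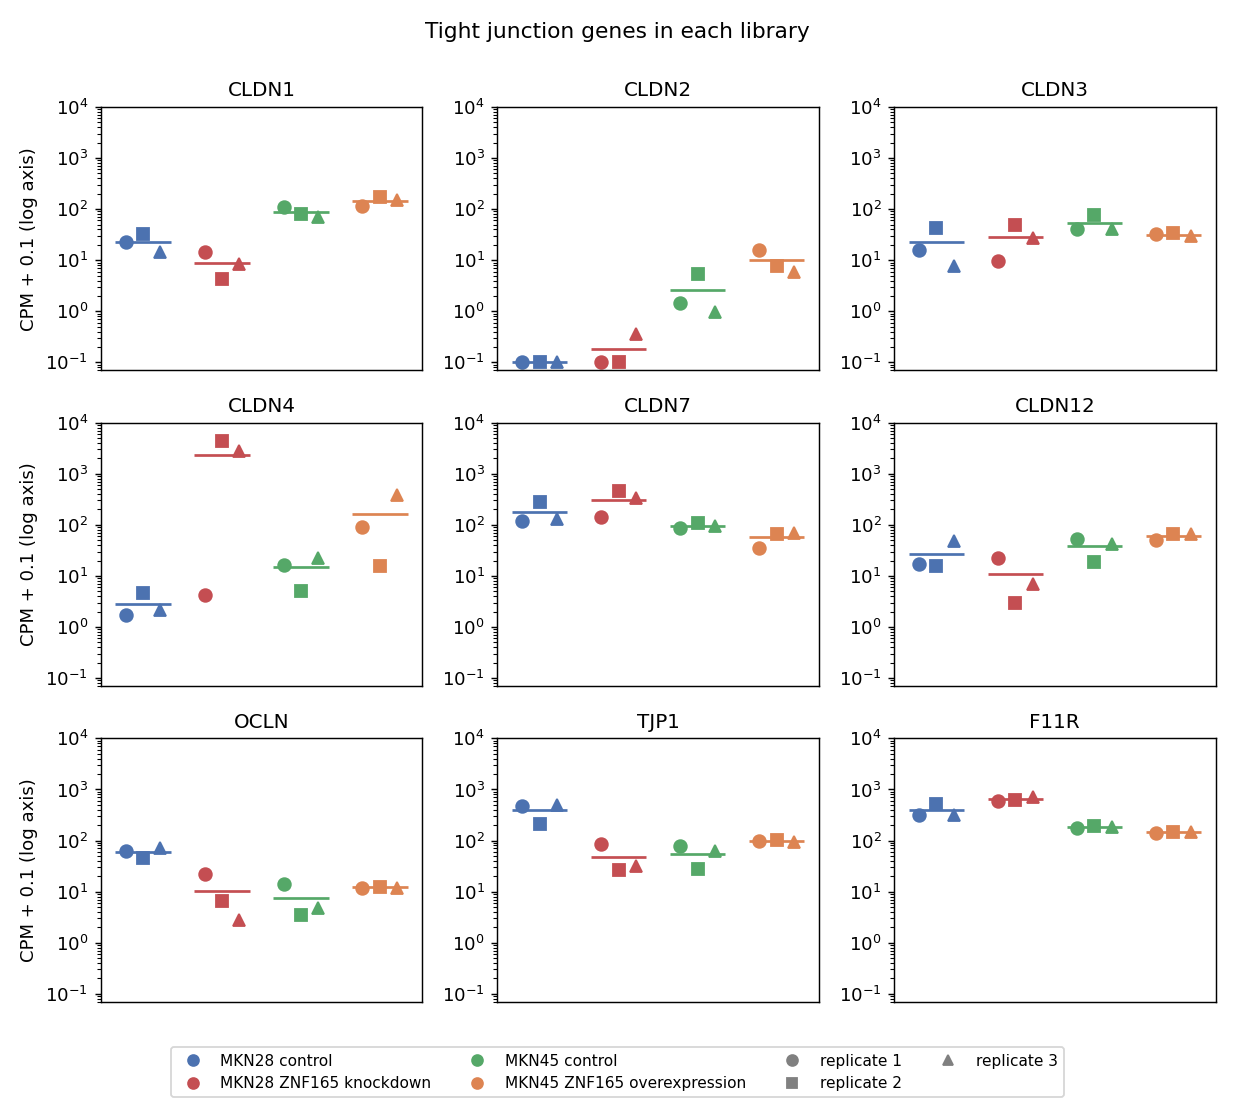
Level of each of the 9 genes in each library, as CPM plus 0.1 on a log axis, with replicate 1 as circles, 2 as squares, 3 as triangles and the group mean as a bar. CLDN4 reaches 4312 and 2789 CPM in knockdown replicates 2 and 3 but 4.08 in replicate 1, while TJP1 and OCLN are lower in all 3 knockdown libraries than in their controls.

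The knockdown asked how the genes differ when ZNF165 is low in MKN28. Of the 8 members tested, CLDN4 rose, TJP1 and OCLN fell, and 5 did not pass an adjusted p under 0.05; among all 14939 genes tested, 40.8% passed, 19.2% higher and 21.6% lower. The count of members called was thus near that background. The median log2 fold change was −0.43 over the members and −0.20 over all genes tested. With scaling by library totals alone the median of all genes was −0.92, so directions are relative to the scaling used.

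CLDN4 encodes a sealing claudin that hinders the passage of sodium. In the MKN28 controls it stood at 1.58, 4.46 and 2.02 CPM (34, 89 and 42 counts), and in knockdown replicates 1, 2 and 3 at 4.08, 4312 and 2789 CPM (56, 40987 and 21578 counts). Replicate 1 lay within the control range, and replicates 2 and 3 lay far above it, so the knockdown mean of 2368 ± 2185 (SD, n = 3) describes no single library. With library totals alone, knockdown replicates 1, 2 and 3 stood at 3.71, 2299 and 1787 CPM. In replicates 2 and 3 CLDN4 took 0.230% and 0.179% of all counts and ranked 50th and 65th among all genes, against ranks between 11061 and 12952 in the controls and 10591 in replicate 1. The fitted log2 fold change was 9.86 (SE 1.92, adjusted p = 0.00496). It was 0.64 (adjusted p = 0.525) with replicates 2 and 3 left out together, which are the libraries whose descriptions name ZNF166 and ZNF167. That fit, here and for the genes below, leaves 1 knockdown library, which is assumed to vary like the controls, so its p-values say little. Of the epithelial markers in replicates 1, 2 and 3, KRT8 stood at 9732, 46650 and 32814 CPM, EPCAM at 915, 204 and 235 CPM and CDH1 at 106, 81.2 and 53.8 CPM, and their part in the CLDN4 result was not tested.

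TJP1, the ZO-1 scaffold, had 465, 215 and 506 CPM in the controls and 84.7, 26.8 and 31.5 CPM in the knockdown. All 3 knockdown libraries lay under all controls, and the means were 395 ± 157 and 47.7 ± 32.2 CPM (SD, n = 3). The fitted log2 fold change was −3.04 (SE 0.61, adjusted p = 0.00523), an 8.22-fold lower level. With replicates 2 and 3 left out together, and 1 knockdown library left, the estimate was −2.19 (adjusted p = 0.0287).

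OCLN, which encodes occludin, had 62.9, 44.5 and 69.9 CPM in the controls and 21.7, 6.31 and 2.71 CPM in the knockdown. The groups did not overlap, and OCLN fell by 2.50 on the log2 scale (SE 0.72, adjusted p = 0.0195), 5.67-fold. The call was lost without control replicate 1 (adjusted p = 0.0632), control replicate 3 (0.0630) or knockdown replicate 2 (0.0593), by the same edgeR test. With replicates 2 and 3 left out together, and 1 knockdown library left, the estimate was −1.41 (adjusted p = 0.0860). The occludin pseudogene OCLNP1 had 110, 62 and 157 counts in the controls, with 18, 0 and 0 in the knockdown, and reads of the near-identical sequences may have been shared between them.

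The other claudins of the set did not pass in the knockdown. CLDN1 had 22.2, 32.4 and 14.1 CPM in the controls and 14.3, 4.10 and 8.27 CPM in the knockdown, a log2 fold change of −1.33 (SE 0.59, adjusted p = 0.0922). CLDN12, with 17.4, 15.4 and 47.3 CPM against 22.8, 2.84 and 6.72 CPM, gave −1.30 (adjusted p = 0.196), and its replicate 1 lay inside the control range. In CLDN7, which also binds the adhesion protein EpCAM, 118, 280 and 133 CPM stood against 144, 455 and 336 CPM (0.89, adjusted p = 0.218). CLDN3 had 15.7, 43.6 and 7.68 CPM against 9.55, 49.7 and 27.0 CPM, the same range in both groups (0.45, SE 0.74, adjusted p = 0.650). F11R, the JAM-A gene, held 323, 526 and 320 CPM in the controls and 598, 630 and 725 CPM in the knockdown (0.79, SE 0.43, adjusted p = 0.164). With library totals alone CLDN3, CLDN7 and F11R changed sign, to −0.52, −0.037 and −0.0028, so their direction depends on the scaling.

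CLDN2 was not tested in MKN28, since its only counts in the 6 libraries were 2 in knockdown replicate 3. A count of 0 over the 3 controls allows a level of up to 0.0482 CPM, the level of 3 counts, which covers counting error only. Within the comparison's own scaling the libraries of the groups did not overlap for 4 of the 8 members tested, CLDN1, OCLN and TJP1 (lower) and F11R (higher), against 53.7% of all genes. For CLDN1 the separation rests on that scaling, since at the 12-library scaling control replicate 3 (14.1 CPM) lay just under knockdown replicate 1 (14.3 CPM). Without knockdown replicate 1, which stood nearest to the controls, CLDN1 (−1.71, adjusted p = 0.00824), CLDN12 (−2.31, 0.00381), CLDN7 (1.35, 0.0106) and F11R (0.98, 0.0311) passed as well, 7 of 8 members. Most genes passed in that fit, 10378 of the 15758 tested. CLDN1, CLDN12, CLDN7 and F11R each passed in only 1 of 6 fits that left out 1 library.

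Fewer cells of a kind and less RNA per cell cannot be told apart in bulk libraries such as these. Over all genes tested, changes in the knockdown followed transcript length, which the members did only in part. The median log2 fold change in the knockdown was 1.15 in the shortest of 4 equal length classes (up to 1991 bases), 0.23 and −0.56 in the middle classes and −1.62 in the longest (5031 bases or more). TJP1 (7950 bases) and OCLN (6438 bases) lie in the longest class and fell below its median, while CLDN3 (1274 bases) and CLDN7 (1923 bases) lie in the shortest, where both stood below 1.15. F11R (4835 bases) and CLDN4 (4163 bases) lay above the median of their class, and CLDN1 (3481) and CLDN12 (3565) below it. With each library's trend on length and GC content removed, CLDN4 and TJP1 still passed, F11R passed at 1.74 (adjusted p = 0.00652), and OCLN no longer did (−0.65, adjusted p = 0.163). Across the 6 MKN28 libraries, log2 CPM of TJP1 and the library's rho with length had a Pearson r of 0.989, and across the 6 MKN45 libraries 0.988. For OCLN the same values were 0.937 and 0.908, and for F11R −0.935 and −0.897, as a description of libraries that share cell line and scaling.

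**Figure D2:**
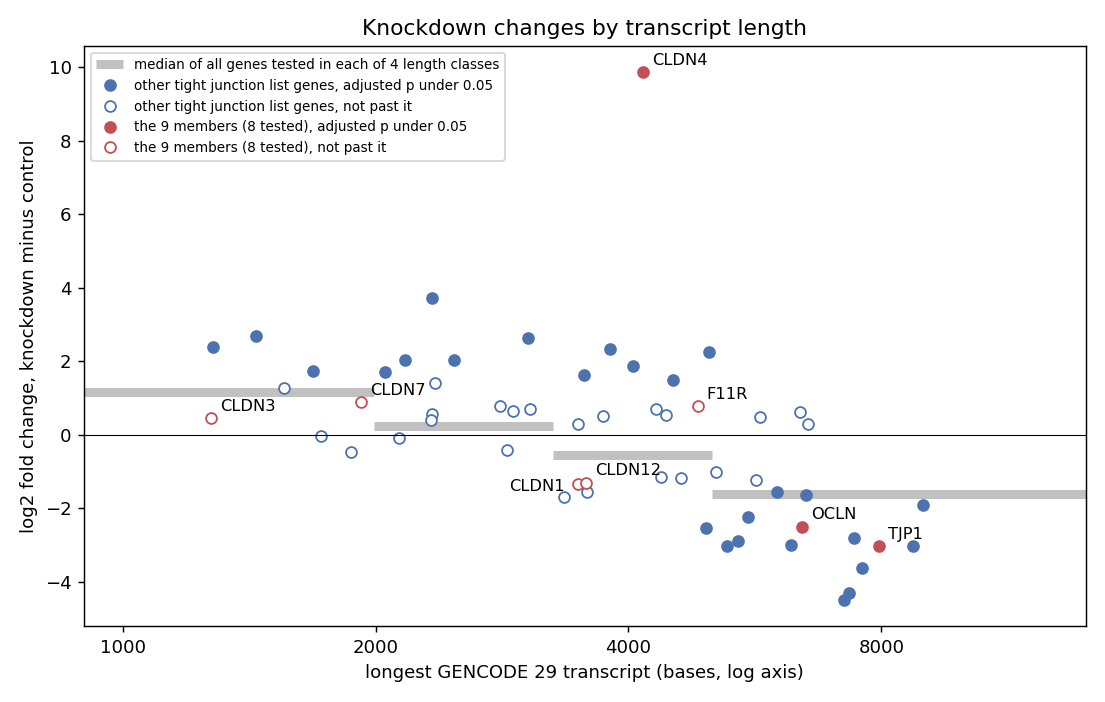
Log2 fold change in the knockdown against the length of the longest transcript (log axis) for 58 tested tight junction and list genes, with the 8 tested members in red and filled points past an adjusted p of 0.05. Grey bars give the median of all genes tested in each of 4 length classes, from 1.15 to −1.62, and CLDN4 at 9.86 lies far from any of them.

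CLDN3 and CLDN4 are neighbours on chromosome 7, with gene models 29271 bases apart, and both encode receptors of the same bacterial enterotoxin. The sizes of their changes differed: in knockdown replicates 2 and 3, where CLDN4 stood at 4312 and 2789 CPM, CLDN3 stood at 49.7 and 27.0 CPM, against 7.68 to 43.6 CPM in the controls. The order of the replicates within the knockdown was the same for both genes. Over the 12 libraries Pearson's r between their log2 levels was 0.336, with 0.630 within MKN28 and −0.789 within MKN45. The 250 bases before each RefSeq start (GRCh38.p14) are shown because the pair shares a locus and differs in level. The CLDN4 window lies inside its gene model, which begins at 73799542. The 29271 bases are thus not measured to the CLDN4 start shown here. They are written 5′ to 3′ on the gene's strand, with GC boxes (GGGCGG on either strand) in capitals.
CLDN3 chr7:73770271-73770520 (minus strand): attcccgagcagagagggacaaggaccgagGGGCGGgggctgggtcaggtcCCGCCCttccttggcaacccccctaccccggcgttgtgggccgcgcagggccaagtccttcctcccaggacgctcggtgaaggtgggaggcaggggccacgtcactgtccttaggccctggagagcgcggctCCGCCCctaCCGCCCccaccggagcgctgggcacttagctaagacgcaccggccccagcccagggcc
CLDN4 chr7:73830746-73830995 (plus strand): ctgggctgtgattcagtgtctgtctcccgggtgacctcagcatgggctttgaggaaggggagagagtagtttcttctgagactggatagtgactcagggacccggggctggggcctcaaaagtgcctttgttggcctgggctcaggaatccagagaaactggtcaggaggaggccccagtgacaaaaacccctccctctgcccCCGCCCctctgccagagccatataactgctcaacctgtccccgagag
The CLDN3 window holds 4 GC boxes and the CLDN4 window 1, and 42.6% of all 35116 RefSeq promoter windows of this length hold at least 1. GC content was 71.6% in the CLDN3 window and 58.8% in the CLDN4 window. Neither holds the E-box CACCTG, searched on both strands and found in 17.5% of all windows, nor the Grainyhead motif, found in 0.117%. The letters say nothing of which factors were bound.

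OCLN and TJP1 were the pair that fell in the knockdown and moved together over the libraries, with a Pearson r of 0.942 over 12 libraries, 0.955 within MKN28 and 0.885 within MKN45. The windows before the first RefSeq start of each are shown for that reason, with E-boxes (CACCTG, the letters that Snail and ZEB repressors read) and GC boxes in capitals, on either strand.
OCLN chr5:69492297-69492546 (plus strand): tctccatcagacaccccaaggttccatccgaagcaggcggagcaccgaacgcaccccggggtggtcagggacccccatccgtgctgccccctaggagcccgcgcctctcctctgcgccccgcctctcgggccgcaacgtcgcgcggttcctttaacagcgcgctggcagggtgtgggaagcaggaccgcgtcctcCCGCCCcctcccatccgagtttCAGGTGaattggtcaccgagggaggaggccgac
TJP1 chr15:29969050-29969299 (minus strand): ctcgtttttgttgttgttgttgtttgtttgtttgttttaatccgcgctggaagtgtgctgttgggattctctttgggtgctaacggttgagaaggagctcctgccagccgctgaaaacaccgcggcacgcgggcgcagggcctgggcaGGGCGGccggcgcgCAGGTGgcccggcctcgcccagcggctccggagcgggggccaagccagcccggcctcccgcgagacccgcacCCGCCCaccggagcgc
Each of these windows holds 1 E-box, and OCLN holds 1 GC box and TJP1 2. OCLN has a second RefSeq start with 1 E-box, and the 3 further starts of TJP1 hold none, and the count table does not say which starts were used. RefSeq windows were found for 8 of the 9 members, 14 windows in all. Of these, only the CLDN7 window of the second start, with 4 E-boxes, holds any besides those of OCLN and TJP1.

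In the overexpression, which asked how the genes differ when ZNF165 is high in MKN45, no member passed edgeR's test at an adjusted p under 0.05, where 1.13% of 15833 genes did. Of the 9 members, 6 had an unadjusted p under 0.05, against 4242 of the 15833 genes. DESeq2 called 3 members, CLDN1, CLDN2 and CLDN4, against 1834 of the 15833 genes. The median log2 fold change was 0.73 over the members and −0.0022 over all genes.

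CLDN4 stood at 16.2, 4.92 and 22.5 CPM in the MKN45 controls and at 92.1, 15.8 and 386 CPM in the overexpression. Replicate 2 of the overexpression lay inside the control range, and the log2 fold change was 3.54 (SE 1.02, adjusted p = 0.0853). By DESeq2 its adjusted p was 0.0388. CLDN2, the cation channel, had 1.35, 5.20 and 0.887 CPM (27, 75 and 16 counts) in the controls and 15.8, 7.73 and 5.86 CPM (353, 180 and 121 counts) in the overexpression. The groups did not overlap, and the log2 fold change was 2.08 (SE 0.62, adjusted p = 0.0923), with an adjusted p of 0.00873 by DESeq2. Without control replicate 2, the highest control, CLDN2 passed at 3.13 (adjusted p = 0.0151, edgeR). It passed in only 1 of 6 such fits that left out 1 library, with adjusted p up to 0.290.

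CLDN1 had 110, 82.1 and 71.0 CPM in the controls and 117, 173 and 149 CPM in the overexpression, with no overlap and a log2 fold change of 0.78 (SE 0.25, adjusted p = 0.105, and 0.0492 by DESeq2). TJP1 had 76.8, 27.9 and 61.9 CPM against 99.2, 100.3 and 95.1 CPM, again without overlap (0.85, SE 0.35, adjusted p = 0.163). The spread of TJP1 was 25.1 CPM in the controls and 2.72 CPM in the overexpression, and the lowest control, replicate 2, was also the MKN45 library with the lowest rho with length, 0.0557. OCLN, at 13.9, 3.40 and 4.71 CPM against 11.6, 12.2 and 11.9 CPM, gave 0.73 (adjusted p = 0.341). Without control replicate 1, the only control above the overexpression libraries, OCLN passed at 1.58 (adjusted p = 0.0447). It passed in only 1 of 6 edgeR fits that left out 1 library, with adjusted p up to 0.558. CLDN12 had 51.7, 18.5 and 42.8 CPM against 49.3, 66.2 and 67.4 CPM (0.73, adjusted p = 0.238).

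The members with negative estimates were CLDN3, CLDN7 and F11R, whose libraries did not overlap between the groups. CLDN3 had 41.1, 78.4 and 41.5 CPM in the controls and 32.5, 33.6 and 29.1 CPM in the overexpression (−0.70, SE 0.27, adjusted p = 0.151). CLDN7 had 85.3, 109 and 96.8 CPM against 35.1, 67.2 and 68.4 CPM (−0.72, SE 0.29, adjusted p = 0.155). F11R had 173, 191 and 187 CPM against 141, 150 and 148 CPM (−0.28, SE 0.19, adjusted p = 0.357). In all, 6 of 9 members had groups without overlap, against 38.2% of all genes. Members with no overlap and a positive estimate were CLDN1, CLDN2 and TJP1. All-gene medians ran from −0.34 in the shortest length class to 0.38 in the longest, and CLDN3 and CLDN7 lie in the shortest and TJP1 in the longest.

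**Figure D3:**
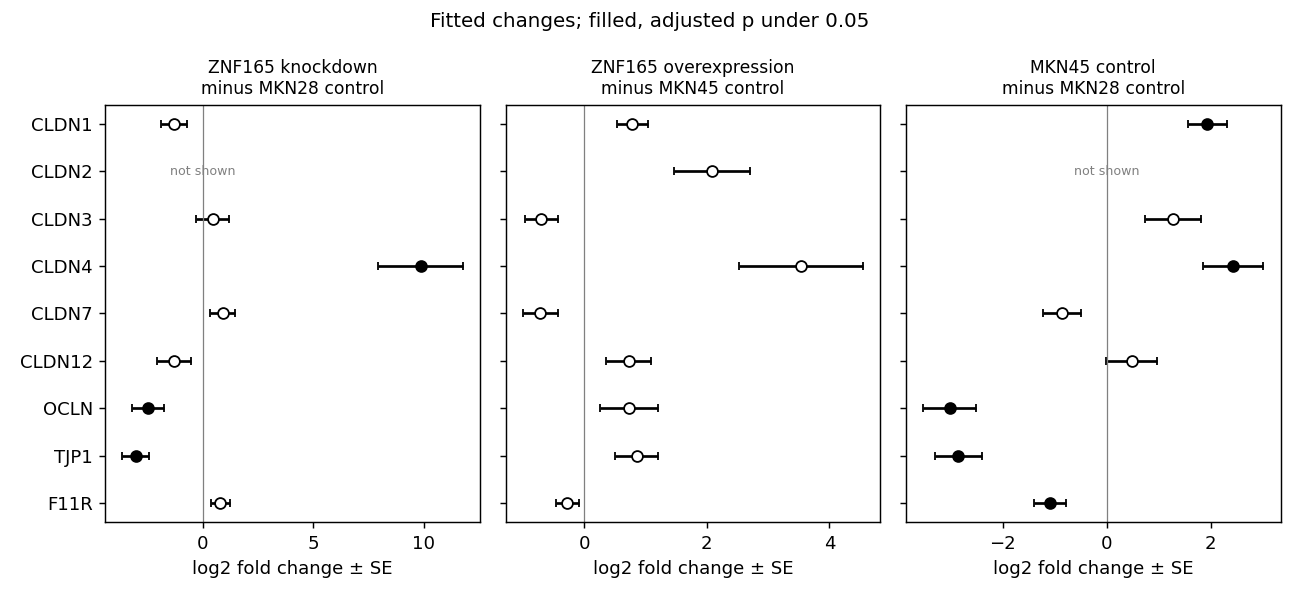
Fitted log2 fold change with its SE for each gene in the knockdown, the overexpression and the comparison of control libraries, on separate scales; filled points have an adjusted p under 0.05. CLDN2 is not shown where it was not tested (knockdown) or where all libraries of a group were at 0 (control comparison), and no point is filled in the overexpression.

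The control libraries of the lines differed in most members: 3 were higher in MKN45 and 3 lower, against 41.8% of all genes called, 21.4% higher and 20.4% lower. This comparison shares the MKN28 controls with the knockdown and the MKN45 controls with the overexpression, and the line cannot be told apart from anything else that differed between the cultures. CLDN2 had no count in the MKN28 controls and 27, 75 and 16 counts in MKN45, a mean of 2.48 ± 2.37 CPM (SD, n = 3), at least 51.5-fold higher than the level of 3 counts over the MKN28 group (adjusted p = 0.000500). CLDN1 had a mean of 22.9 ± 9.21 CPM in MKN28 and 87.8 ± 20.3 CPM in MKN45 (log2 fold change 1.93, SE 0.37, adjusted p = 0.00124). CLDN4 had 2.69 ± 1.55 and 14.5 ± 8.91 CPM (2.44, SE 0.58, adjusted p = 0.00502), and the call was lost in a fit of all 12 libraries (adjusted p = 0.196). All MKN45 controls lay above all MKN28 controls for these 3 genes.

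OCLN, TJP1 and F11R were lower in MKN45. OCLN had 59.1 ± 13.1 CPM in MKN28 and 7.35 ± 5.74 CPM in MKN45 (−3.02, SE 0.51, adjusted p = 0.000480), and TJP1 395 ± 157 and 55.5 ± 25.1 CPM (−2.85, SE 0.45, adjusted p = 0.000311). F11R had 390 ± 118 and 184 ± 9.23 CPM (−1.09, SE 0.31, adjusted p = 0.0139), and its call was lost without MKN45 control replicate 1 (adjusted p = 0.0578) or 3 (0.0569). The levels of the lines did not overlap for 7 of 9 members, CLDN7 with these 6, against 52.8% of all genes.

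CLDN3, CLDN7 and CLDN12 did not pass between the lines. CLDN3 had 22.3 ± 18.9 CPM in MKN28 and 53.7 ± 21.4 CPM in MKN45 (1.28, SE 0.54, adjusted p = 0.0761), and CLDN7 177 ± 89.4 and 96.9 ± 11.7 CPM (−0.86, SE 0.36, adjusted p = 0.0740). In an edgeR fit blocked on replicate number both passed: CLDN3 at 1.53 (SE 0.30, adjusted p = 0.00281) and CLDN7 at −0.77 (SE 0.22, adjusted p = 0.0182). That fit takes the numbers to pair the control libraries of the lines, which is not settled. In MKN28 control replicate 2 CLDN3 was highest of the 3, and without that library it passed, at 2.22 (adjusted p = 0.00451). CLDN3 passed in only 1 of 6 edgeR fits that left out 1 library, with adjusted p up to 0.241. CLDN12 had 26.7 ± 17.9 and 37.7 ± 17.2 CPM (0.48, SE 0.49, adjusted p = 0.462).

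The effect of higher against lower ZNF165 was then compared between the lines in 1 fit of all 12 libraries, where 17.5% of 17266 genes passed. CLDN4 and TJP1 passed of the 9 members. For CLDN4 the difference was 13.4 on the log2 scale (SE 2.38, adjusted p = 0.00533): the gene was higher with less ZNF165 in MKN28, in 2 of 3 libraries, and its estimate was positive with more ZNF165 in MKN45. With knockdown replicates 2 and 3 left out, and 1 library in that group, it was 4.13 (adjusted p = 0.101). For TJP1 the difference was −2.13 (SE 0.68, adjusted p = 0.0448), with a positive estimate for higher ZNF165 in each line and the larger in MKN28; only that of MKN28 passed on its own. The TJP1 call held in 3 of 12 fits that left out 1 library, those without MKN28 control replicate 2, knockdown replicate 1 or MKN45 control replicate 2. In the other 9 its adjusted p lay between 0.0913 and 0.122. Removing the trend on length and GC content also ended the call (−0.90, adjusted p = 0.0997). OCLN gave −1.74 (SE 0.88, adjusted p = 0.175), and passed without knockdown replicate 1, at −2.85 (adjusted p = 0.00558). For OCLN that was 1 of 12 fits that left out 1 library. In the remaining 6 members the difference did not pass.

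The claudin mixture of each library can be read as shares of the summed claudin level in CPM per kb. CLDN7 made up 63.4%, 68.9% and 66.6% of it in the MKN28 controls and 68.6% in knockdown replicate 1, but 17.4% and 19.4% in replicates 2 and 3. There CLDN4 made up 76.3% and 74.1%, against 0.90% in replicate 1 and 0.39%, 0.51% and 0.47% in the controls. The summed level was 96.6, 211 and 104 CPM per kb in the controls, 109 in replicate 1, and 1358 and 904 in replicates 2 and 3. In the MKN45 controls CLDN7 held 31.8%, 34.3% and 37.8%, and CLDN4 2.78%, 0.72% and 4.07%. In the overexpression CLDN7 held 13.9%, 23.7% and 15.9%, and CLDN4 16.8%, 2.57% and 41.4%. Between the MKN45 controls and the overexpression the CLDN7 shares did not overlap, whereas the CLDN4 shares did.

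**Figure D4:**
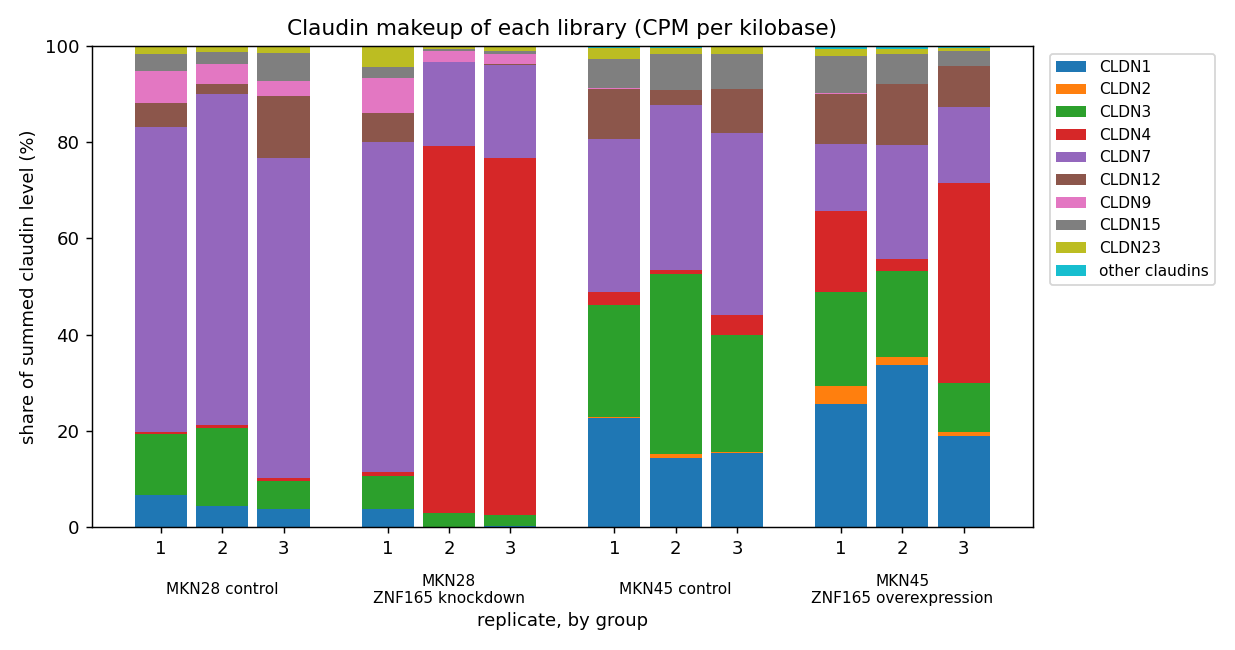
Share of each claudin in the summed claudin level (CPM per kb of the longest transcript) in each of the 12 libraries, with replicates 1 to 3 of each group side by side. CLDN7 is the largest share in the MKN28 controls and knockdown replicate 1, CLDN4 takes 76.3% and 74.1% in knockdown replicates 2 and 3, and MKN45 libraries hold more CLDN1.

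Of 24 claudins listed, 13 stayed under 1 CPM in every library, among them CLDN17 and CLDN25, which had no count, and 9 reached 5 CPM in at least 1 library. CLDN18, the claudin of normal gastric mucosa, had 21 counts in all 12 libraries together and at most 0.269 CPM. Among the 18 claudins outside the set, 3 were tested in the knockdown, where CLDN23 (3.55 ± 1.59 to 13.9 ± 3.42 CPM, log2 fold change 2.02, adjusted p = 0.0162) and CLDN9 (12.7 ± 5.59 to 39.5 ± 23.8 CPM, 1.71, adjusted p = 0.0497) rose. Neither passed with library totals alone or with the length and GC trend removed, though the estimates stayed positive. They were 1.18 and 0.92 for CLDN23 and 0.75 and 0.38 for CLDN9, in that order of settings. Between the lines CLDN9 was lower in MKN45, at 0.344 ± 0.223 CPM (−5.14, adjusted p = 2.4e-05), and CLDN15 higher (10.3 ± 3.03 to 21.6 ± 3.99 CPM, 1.06, adjusted p = 0.0370), with CLDN16 also called higher.

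The wider junction genes were counted on lists of tight junction proteins, beside the 40.8% of all genes called in the knockdown (19.2% higher, 21.6% lower). Of 8 tested membrane proteins outside the set, LSR (2.03), a protein of the corners where cells meet, and CRB3 (2.67), an apical polarity protein, rose in the knockdown, and the coxsackievirus and adenovirus receptor CXADR (−2.99) fell, 3 of 8 and near that share. Of 22 tested plaque and polarity proteins, 10 fell and 2 rose, with a median of −1.40 against −0.20 for all genes. CGNL1, a paracingulin that TJP1 binds (−4.49), the angiomotin AMOT (−4.31), the afadin gene AFDN (−3.62) and the scaffold PATJ (−3.02) fell most, and PARD6A and AMOTL2 rose. With the length and GC trend removed 7 fell and 2 rose, and the median was −0.58; with library totals 11 fell and 0 rose, and with knockdown replicates 2 and 3 left out together 6 fell and 0 rose. Of all 58 tight junction and list genes tested, 10 of the 29 with transcripts under 4000 bases rose and none fell, and 4 of the 29 with longer transcripts rose and 15 fell. Over all genes the shares were 39.8% higher and 4.30% lower in the shortest length class and 4.28% higher and 47.6% lower in the longest, a split in the same direction.

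Of 11 tested epithelial regulators of junction genes, OVOL1 (2.64), ELF3 (2.26), CDX2 and the repressor SNAI1 rose in the knockdown, and the Grainyhead-like factors GRHL2 (−3.03) and GRHL1 (−2.90), known activators of claudin genes, fell, so 6 of 11 were called against 40.8% of all genes. GRHL2 went from 102 ± 29.9 to 12.4 ± 12.7 CPM. With library totals alone 2 rose and 2 fell, and with knockdown replicates 2 and 3 left out 3 rose and 2 fell. Of the 6 tested surface proteases and inhibitors, the matriptase gene ST14 (1.61), its inhibitor SPINT2 (2.34) and the matrix metalloprotease MMP9 (3.71) rose, and ST14 did not pass with library totals (0.70, adjusted p = 0.168). In the overexpression 0 of the 58 genes tested on these 5 lists passed edgeR's test, 9 had an unadjusted p under 0.05 and DESeq2 called 5. Of all 15833 genes tested, 4242 had an unadjusted p under 0.05 and DESeq2 called 1834, so both list counts lay under the share of all genes. Between the lines ILDR1 (4.48), MAGI1 (2.37), HNF4A (4.88) and MMP7 (6.99) were higher in MKN45, and ESAM (−2.97), ARHGEF18 (−2.42) and GRHL3 (−6.87) lower.

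Among 14777 genes with a mean of at least 1 CPM, the gene whose log2 level was most like each member's over the 12 libraries was found by Pearson's r. These were TSC22D1 for CLDN1 (0.982), CXCL2 for CLDN2 (0.979), IGSF8 for CLDN3 (0.991), DVL1 for CLDN4 (0.918), LRRC24 for CLDN7 (0.989), ZNF197 for CLDN12 (0.982), OSBPL11 for OCLN (0.984), RDX for TJP1 (0.993) and KCTD5 for F11R (0.994). CLDN4 had the lowest of these values, and within MKN45 its r with DVL1 was 0.344. RDX, the radixin gene, went from 200.03 CPM in MKN28 controls to 19.2 in the knockdown and from 22.4 CPM in MKN45 controls to 41.3 in the overexpression, beside 395, 47.7, 55.5 and 98.2 CPM for TJP1. Among members, CLDN7 and F11R had an r of 0.901 and CLDN1 and F11R of −0.921. All such values share the line, depth and length trend of the libraries.

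In the Ensembl annotation of GENCODE 29 (GRCh38) the genes lie as follows, and the build of the deposited counts is not given in the sources used here. CLDN1 (ENSG00000163347) spans chromosome 3, 190305701 to 190322475, minus strand. CLDN2 (ENSG00000165376) spans chromosome X, 106900164 to 106930861, plus strand, and overlaps MORC4 on the opposite strand. CLDN3 (ENSG00000165215) spans chromosome 7, 73768997 to 73770270, minus strand, and CLDN4 (ENSG00000189143) 73799542 to 73832693, plus strand. CLDN7 (ENSG00000181885) spans chromosome 17, 7259903 to 7263983, minus strand, and overlaps ELP5 on the opposite strand, which had 288 to 2591 counts. CLDN12 (ENSG00000157224) spans chromosome 7, 90383721 to 90513402, plus strand, and overlaps GTPBP10 on the same strand, with 48 to 929 counts. OCLN (ENSG00000197822) spans chromosome 5, 69492292 to 69558104, plus strand. TJP1 (ENSG00000104067) spans chromosome 15, 29699367 to 29968865, minus strand, and holds the pseudogene HMGN2P5, with 389 to 1076 counts. F11R (ENSG00000158769) spans chromosome 1, 160995211 to 161021348, minus strand. As the strand setting of the counting is not stated, reads of overlapping genes cannot be told apart.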

How the data were processed

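RNA was sequenced from 12 libraries, 3 in each of 4 groups, with groups and numbers as labelled. The deposited table holds whole-number counts per Ensembl gene, per the file headers and the values, and all sample columns were used. HISAT2 and StringTie were used per the submitters' processing notes, without versions. Counting step, strand setting and genome build are not stated in the sources used here. Symbols were found for 49659 of 50868 identifiers, and 50111 are in GENCODE 29, which gave lengths and coordinates. Library totals were 12075813 to 19548445 counts, and a count of 0 allows up to 3 counts. Replicate pairs differed by far more than counting error, with a chi-square per degree of freedom of 19.5 to 417.

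Each comparison was fitted on its own libraries with edgeR 4.0.16 in R 4.3.3 (quasi-likelihood test, TMM factors, filterByExpr with a minimum count of 10 and a minimum total of 15). Calls are Benjamini-Hochberg adjusted p under 0.05 over all genes tested. The difference between lines was fitted on all 12 libraries. The SE of a log2 fold change is its size over the square root of the quasi-likelihood F. CPM values in the text use TMM factors over the 12 libraries. Levels compared between genes are divided by the longest transcript. Alternatives were DESeq2 1.42.0, library totals, upper-quartile factors, no filter, a replicate block, a smooth trend on length and GC content removed with mgcv 1.9.3, all 12 libraries in 1 fit, and libraries left out. The edgeR and DESeq2 steps were tested on simulated data. Control libraries of MKN28 and MKN45 with the same replicate number deviated together from their group means, with correlations across genes of 0.338, 0.572 and 0.341 for numbers 1 to 3. Of unlike numbers, MKN28 replicate 3 with MKN45 replicate 1 gave 0.328, and 1 with 3 gave 0.176. Pairs of replicate 2 with another number gave −0.460 to −0.354. Replicate 2 thus stood apart in both lines, and whether the numbers pair these groups is not settled.

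Promoter windows are from RefSeq (GRCh38.p14). Genes named are ZNF165, the 9 members, the gene most like each by Pearson's r of log2(CPM + 0.5), and up to 4 called genes per list and comparison with the largest fold change and a mean of at least 5 CPM in a group; other names on a list were given to account for its count or because they were seen in the data; 1 list gene that the rule would name is not reported here. The members and lists were chosen with earlier results of these data known.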

Additional observations from a re-analysis of the deposited data

Results flagged for a closer look

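In 2 members the response to ZNF165 level was called as different between the lines. For CLDN4 the difference was 13.42 on the log2 scale (SE 2.38, adjusted p = 0.00533, edgeR's quasi-likelihood test on all 12 libraries), and it rested on knockdown replicates 2 and 3. The separate fits gave log2 fold changes of 9.86 in the knockdown and 3.54 in the overexpression. For TJP1 the difference was −2.13 (SE 0.68, adjusted p = 0.0448), beside −3.04 in the knockdown and 0.85 in the overexpression. The TJP1 call held in only 3 of 12 fits that left out 1 library, and was lost with the length and GC trend removed.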

How the results depend on the processing

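Of the members' knockdown values, 91 kept direction and call over the alternatives, 6 lost the call, 7 gained it and 8 changed sign; in the overexpression 109 were kept and 8 gained a call; between the lines 106 were kept, 8 gained and 3 lost a call; and for the difference between lines 140 were kept, 4 gained, 12 lost a call and 15 changed sign. The causes were not tested.

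With knockdown replicates 2 and 3 left out the arm holds 1 library, assumed to vary like the other groups. In the knockdown, 3352 genes passed with both left out, against 6092, and 2642 to 10378 with 1 library left out. The extremes came without MKN28 control replicate 1 (2642) and without knockdown replicate 1 (10378); without control replicate 3 it was 3171. Members past the threshold were 5 with all 12 libraries in 1 fit, 1 with knockdown replicates 2 and 3 left out, and 2 to 7 with 1 left out. In the overexpression, against 179 genes, 1834 passed by DESeq2, 722 without a filter, 8 with the replicate block, 1226 with the length and GC trend removed, 3 with all 12 libraries in 1 fit and 1 to 1338 with 1 library left out; members were 3, 2, 0, 1, 0 and 0 to 1. For the difference between lines, 4730 genes passed by DESeq2 and 1217 with knockdown replicates 2 and 3 left out, against 3017, and 1163 to 8210 with 1 left out; members were 0 with both left out and 1 to 3 with 1 left out. Between the lines 5085 to 7499 genes and 5 to 7 members passed with 1 library left out.

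Changes of sign in the knockdown were CLDN3 with library totals (−0.52), with the length and GC trend removed (−1.02), with replicates 2 and 3 left out (−1.18) and over single libraries left out (−0.25 to 1.33), CLDN7 with library totals (−0.037), the trend removed (−0.45) and both replicates out (−0.26), and F11R with library totals (−0.0028). In the difference between lines they were CLDN1 (0.096 with the trend removed, 0.087 with both replicates out), CLDN3 (−0.95 to 0.70 over single libraries left out), CLDN7 (−0.64 with library totals, −0.70 with the trend removed, −1.03 with both out, −0.22 to 0.70 over single libraries), CLDN12 (0.25 with the trend removed, 0.51 with both out, −1.65 to 0.14 over single libraries) and F11R (−0.18 with library totals). No member with a sign change had passed in the edgeR fit that the alternatives were set against. Among the alternatives in the knockdown, CLDN7 and F11R passed without knockdown replicate 1, and F11R with the trend removed.

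The share of called genes that were higher in the knockdown was 47.0%, and 25.1% with library totals alone; in the difference between lines these were 46.3% and 19.7%. In the overexpression it was 82.7%, and 51.4% with the trend removed.

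Knockdown libraries and their controls of the same number had correlations of deviations of 0.305, 0.469 and −0.405, and overexpression libraries −0.104, −0.0569 and 0.0865, so they share only a number. Under the replicate block 6994 genes and 3 members passed in the knockdown and 8 genes and 0 members in the overexpression, 8939 genes and 8 members between the lines, where the block changed the calls of CLDN3 and CLDN7 and of no other member, and 3514 genes and 2 members in the difference between lines. Of 36 group levels per kb, 28 moved by over 1 SD with the median transcript and 7 with library totals. Depth limits CLDN2 in MKN28, where 2 counts were seen in 6 libraries.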
